A study of Mus musculus with 8 samples.

Results

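The genes described are 44 parts of the machinery with which the endoplasmic reticulum (ER) takes in, glycosylates, checks and sends on secretory and membrane proteins. They were chosen by symbol, 1 transcript each, from the 55421 transcripts of the deposited tables, and all 44 were present and were tested. By role they are 8 genes of the signal recognition particle (SRP) and its receptor, 9 of the Sec61 channel and the translocon-associated protein (TRAP) complex, 7 of the oligosaccharyl transferase, 5 of the signal peptidase, 11 of ER-associated degradation (ERAD), 2 secreted proteins induced by ER stress and 2 subunits of the COPII coat. As background, the SRP binds a signal sequence as it leaves the ribosome and docks at its receptor, and the chain then enters the ER through the Sec61 channel, where the signal peptidase removes the signal sequence and the oligosaccharyl transferase attaches a glycan to asparagine. Chains that do not fold are recognised by lectins and mannosidases, passed back through the membrane by the ERAD complex and degraded by the proteasome, while folded ones leave in COPII vesicles. Hepatocytes secrete most plasma proteins by this route, and many of these genes are induced by the unfolded protein response through the factors XBP1 and ATF6.

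The study asks how sudachitin, a polymethoxyflavone from citrus, acts on the liver clock and on energy metabolism. The 8 livers came from male C57BL/6J mice, all fed a high-fat diet with 45% of calories from fat from the end of 4 weeks of acclimation, and were sampled at 30 weeks of age. Control mice were gavaged with phosphate-buffered saline and treated mice with sudachitin (100 mg per kg), on alternate days from ZT8 to ZT10. ZT, zeitgeber time, counts the hours since the lights came on. In each of the 4 groups, control ZT6, control ZT18, sudachitin ZT6 and sudachitin ZT18, poly(A) RNA of 2 livers was sequenced without strand information, ZT6 being day and ZT18 night. All comparisons therefore concern mice on a high-fat diet.

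Libraries held 13914116 to 17759630.5 counts in exons. The hepatocyte markers Alb, Ttr, Apoa1, Trf, Serpina1c and Cps1 summed to 23274 to 29497 FPKM (count scaled by exon length and library total) in each liver, so that the labelled tissue was borne out by its markers. Control ZT18 mouse 1 stood apart, as the highest of the 8 libraries in 19.7% and the lowest in 18.6% of all 14506 tested transcripts, against 8.69% to 15.4% for the other libraries. The codes in the sample titles share no start between groups, so that cage or handling, if the codes mark them, and the groups cannot be told apart. Within each group, the livers share a code start at ZT6 but not at ZT18. In whole liver, fewer cells of a type and less RNA per cell cannot be told apart.

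Per exon length, the 44 transcripts covered a wide range of levels. Herpud1, a stress-induced ERAD membrane protein, led with a mean of 61.9 ± 9.6 FPKM (SD over the 8 livers), followed by Vcp, the ATPase that pulls proteins out of the membrane, at 52.7 ± 8.91, and Os9, an ERAD lectin, at 41.3 ± 3.15. The first 2 overlapped, with 44.9 to 78.1 FPKM for Herpud1 and 41.8 to 63.7 for Vcp. Among the channel genes Sec61b had 40.3 ± 3.90 and Ssr3 37.0 ± 6.47 FPKM. At the low end were Edem3 with 3.07 ± 0.315, Derl3 with 0.694 ± 0.529 and Srp54a with 0.223 ± 0.058 FPKM. Srp54a matches Srp54b and Srp54c at 99.6% identity over 3644 bases, so its count depends on how reads with several positions were treated and is uncertain. A match of at least 95% over at least 300 bases to another annotated gene was found for 10 further genes (Derl1, Ost4, Sec61a1, Sec61b, Sec61g, Sec62, Spcs2, Srpr, Srprb and Vcp), so that reads may be shared. Exons of a gene on the opposite strand overlap Sec61a1 by 549, Sec62 by 509, Sec11a by 216, Rpn2 by 144, Rpn1 by 131 and Syvn1 by 91 bases.

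**Figure D1:**
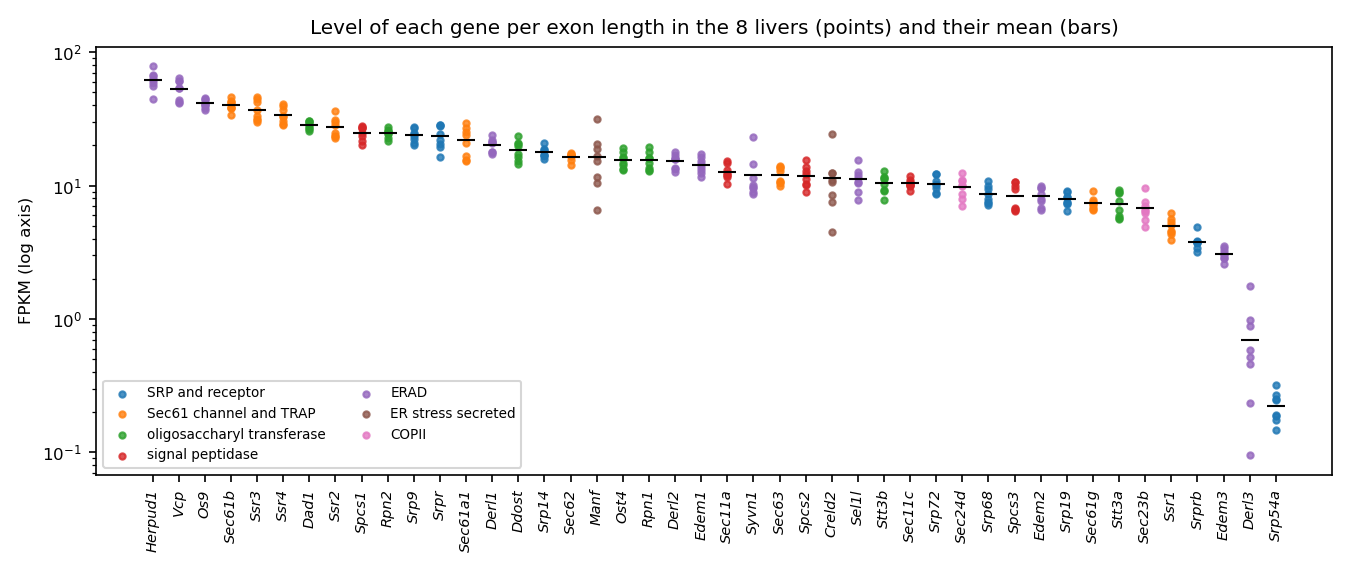
Level of each of the 44 genes in FPKM on a log axis, 1 point for each of the 8 livers and a bar at their mean, coloured by role and ordered by the mean. Herpud1, Vcp and Os9 lead, and Derl3 and Srp54a lie lowest, Srp54a below 1 FPKM in all 8 livers.

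The main difference was between day and night. Over both treatments, 4 of the 44 genes fell from ZT6 to ZT18 in edgeR's quasi-likelihood test with Benjamini-Hochberg adjustment over all 14506 transcripts, none rose and 40 did not pass, where 1.82% of all tested transcripts fell and 1.86% rose, 3.68% in all. The 4 were Spcs3, Stt3a, Sec61a1 and Srpr, so that signal peptidase, oligosaccharyl transferase, channel and SRP receptor each had 1 gene that fell. Of the 44 log2 differences, 40 were below 0, against 47.3% of all tested transcripts, and their median was -0.25 against 0.02. At an unadjusted p under 0.05 there were 21 genes, against 20.4% of all tested transcripts. In 17 genes each of the 4 ZT18 livers lay below each of the 4 ZT6 livers, a pattern found in 7.02% of all tested transcripts, and in no gene did they all lie above, against 5.99%. These 17 were Srp68, Srpr, Sec61a1, Sec61b, Sec63, Ssr1, Ssr2, Ssr3, Rpn1, Ddost, Stt3a, Spcs2, Spcs3, Edem2, Derl1, Vcp and Manf.

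**Figure D2:**
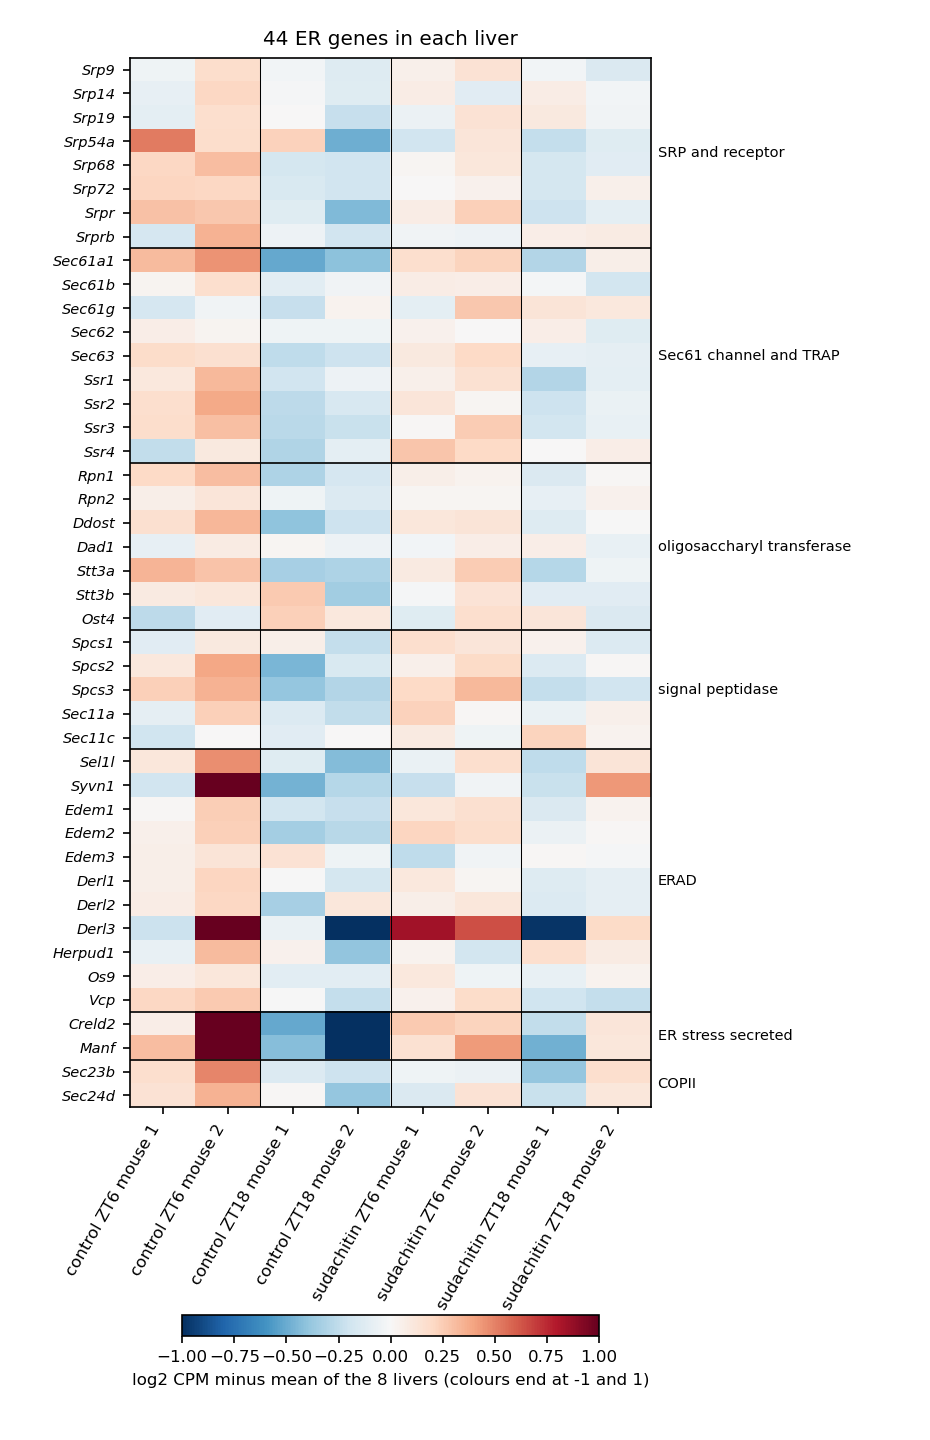
log2 CPM of each of the 44 genes in each of the 8 livers minus the mean of the 8, with red above and blue below that mean and colours ending at -1 and 1. The ZT6 columns are mostly red and the ZT18 columns mostly blue, except sudachitin ZT18 mouse 2, which is mixed with a median of -0.0074. Control ZT6 mouse 2 is the highest liver for 31 genes.

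SRP and its receptor had 8 genes, all with a log2 difference below 0 over both treatments (median -0.20), of which Srpr fell. Srpr encodes the receptor subunit that binds the SRP and lies on chromosome 9 from 35211155 to 35217014 on the plus strand of GRCm38, in 14 exons. In CPM (count scaled to the library size with TMM, given for mouse 1 and then mouse 2), Srpr was at 182 and 179 in control livers by day and 136 and 109 at night, and 156 and 176 in sudachitin livers by day and 128 and 139 at night. Every ZT18 liver was below every ZT6 liver, and the lowest value was that of control ZT18 mouse 2. Srpr fell by 0.43 on the log2 scale over both treatments (SE 0.10, edgeR adjusted p = 0.0493), a 1.35-fold lower level. It matches the gene Gm6733 at 97.4% over 1285 bases, so part of its reads may be shared. Srp68, which with Srp72 forms the SRP's large protein pair, had 53.5 and 57.3 CPM in control livers by day and 41.1 and 40.7 at night, and 47.0 and 50.2 in sudachitin livers by day and 41.1 and 42.8 at night. Its night livers were also all below its day livers, but with a difference of -0.32 (SE 0.081) it did not pass (edgeR adjusted p = 0.0634). Srp72 separated day from night in control livers but overlapped in sudachitin livers. The small subunits Srp9 and Srp14, which bind as a pair and slow translation, the assembly factor Srp19, the signal-binding GTPase Srp54a and the receptor's membrane anchor Srprb had differences of -0.31 to -0.05 and overlapped between day and night over the 8 livers.

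The Sec61 channel and TRAP had 8 of 9 genes below 0, with a median of -0.31, and Sec61a1 fell. Sec61a1 is the subunit that forms the pore, and its transcript lies on chromosome 6 from 88503579 to 88518905 on the minus strand in 12 exons. Its level was 180.4 and 198 CPM in control livers by day and 102 and 109 at night, and 162 and 169 in sudachitin livers by day and 118 and 151 at night. All night livers were lower, the control ones most, and sudachitin ZT18 mouse 2 lay closest to the day values. Sec61a1 fell by 0.57 over both treatments (SE 0.13, edgeR adjusted p = 0.0472), to 120.1 from 177 CPM on average. The predicted gene Gm44170 overlaps its exons by 549 bases on the opposite strand, and without strand information the reads of both cannot be told apart. The other channel subunits moved less: Sec61b had a difference of -0.17 (SE 0.077, edgeR adjusted p = 0.252) and Sec61g one of 0.01 (SE 0.10, adjusted p = 0.966). Sec63, a membrane protein that brings the chaperone BiP to the channel, had 176 and 173 CPM in control livers by day and 129.9 and 134 at night, and 166 and 178 in sudachitin livers by day and 146 and 146 at night. Its day and night livers did not overlap, and with -0.32 (SE 0.076) it just missed the threshold (edgeR adjusted p = 0.0542). Sec62, which works with Sec63 on chains that enter after translation, had -0.07 (SE 0.076, edgeR adjusted p = 0.649). Of the 4 TRAP subunits, Ssr1, Ssr2 and Ssr3 had no overlap between day and night, with differences of -0.31, -0.35 and -0.38 and edgeR adjusted p-values of 0.0872, 0.0824 and 0.0603. Ssr1 had 106 and 124 CPM in control livers by day and 86.8 and 95.5 at night, and 102 and 110.1 in sudachitin livers by day and 81.0 and 92.6 at night. Ssr4 overlapped, with -0.17.

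The oligosaccharyl transferase had 6 of 7 genes below 0 with a median of -0.15, and Stt3a fell. Stt3a is the catalytic subunit of the form that acts while the chain is still entering the ER, and Stt3b that of the form that acts on sites left out. Stt3a, on chromosome 9 from 36729344 to 36767679 on the minus strand in 18 exons, had 115 and 111 CPM in control livers by day and 72.1 and 73.5 at night, and 96.6 and 109 in sudachitin livers by day and 74.4 and 88.0 at night. The 4 night livers were below the 4 day livers, and Stt3a fell by 0.48 (SE 0.097, edgeR adjusted p = 0.0311), a 1.40-fold lower level. Stt3b overlapped between day and night, with 112 CPM in control ZT18 mouse 1 and 73.6 in control ZT18 mouse 2, its highest and lowest livers, and a difference of -0.15 (SE 0.12, edgeR adjusted p = 0.55). Whether the night change differed between the 2 catalytic subunits was not tested. Ddost, a subunit needed for a stable complex, had a difference of -0.37 (SE 0.10, edgeR adjusted p = 0.085), and Rpn1, which holds substrates near the active site, one of -0.30 (SE 0.10, adjusted p = 0.134), both without overlap. The Ddost values were 93.4 and 105 CPM in control livers by day and 63.1 and 72.3 at night, and 90.3 and 91.3 in sudachitin livers by day and 76.4 and 83.1 at night. Those of Rpn1 were 138 and 149, 97.0 and 107, 125 and 123, and 109 and 121 CPM in the same order. For both genes the control livers held the highest day and the lowest night values. Rpn2 had -0.11 and Dad1 -0.02, and both overlapped. Ost4, the smallest subunit, was the gene with the highest difference of the 44, 0.16 (SE 0.12, edgeR adjusted p = 0.483). Its control livers had 32.0 and 35.4 CPM at ZT6 and 45.0 and 41.1 at ZT18, whereas its sudachitin livers, at 35.2 and 43.0 and at 41.7 and 34.6, overlapped. Ost4 shares 654 bases with the neighbouring gene Agbl5 without a mismatch, so its count is uncertain.

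In the signal peptidase 4 of 5 differences were negative (median -0.20), and Spcs3 fell with the smallest p of all 44 genes. Spcs3 encodes an accessory subunit needed for the complex and lies on chromosome 8 from 54520433 to 54529998 on the minus strand in 5 exons, with no exon overlap or near-identical copy found. It had 72.5 and 78.2 CPM in control livers by day and 46.9 and 49.95 at night, and 70.6 and 77.1 in sudachitin livers by day and 51.9 and 53.7 at night. Day and night formed 2 separate clusters in both treatments, with at most 53.7 CPM at night and at least 70.6 by day. Spcs3 fell by 0.56 over both treatments (SE 0.080, edgeR adjusted p = 0.00865), a 1.48-fold lower level. Spcs2, another accessory subunit, had a difference of -0.37 (SE 0.12, edgeR adjusted p = 0.122) without overlap. Spcs1 had -0.13, and of the catalytic subunits Sec11a had -0.20 and Sec11c 0.07, with day and night livers overlapping in all 3.

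**Figure D3:**
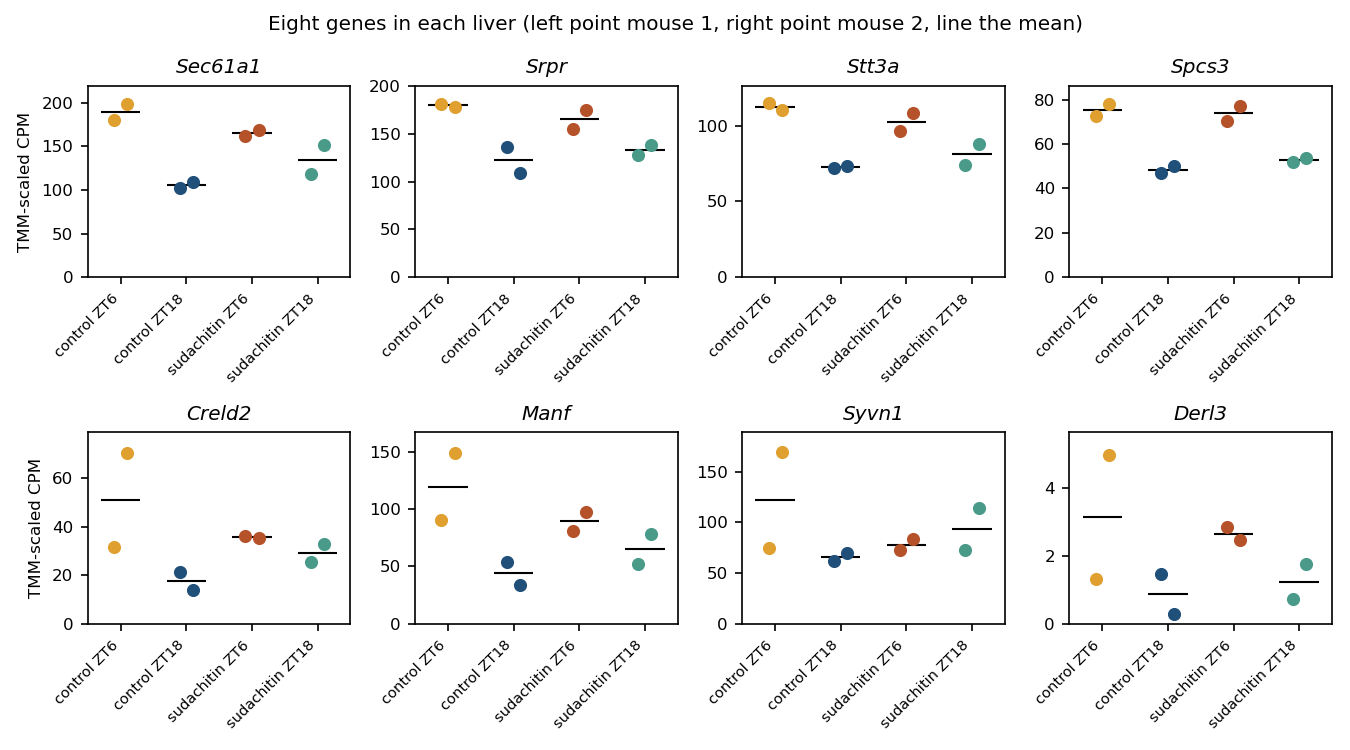
TMM-scaled CPM of 8 genes in each liver, on axes that start at 0, with the left point mouse 1, the right point mouse 2 and a line at the group mean. In the upper row the night livers lie below the day livers in both treatments, and in the lower row control ZT6 mouse 2 is the highest liver for each gene.

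Of the 11 ERAD genes none passed over both treatments, and 10 were below 0 with a median of -0.27. Vcp had 428 and 445 CPM in control livers by day and 370.1 and 316 at night, and 382 and 422 in sudachitin livers by day and 323 and 315 at night. Its night livers were all below its day livers, and the difference of -0.34 (SE 0.084) had an edgeR adjusted p of 0.0603. Of the mannosidase-like EDEM proteins, which trim glycans of misfolded chains, Edem2 had -0.34 (SE 0.085, edgeR adjusted p = 0.0648) without overlap, Edem1 -0.27 (SE 0.089, adjusted p = 0.135) and Edem3 0.05 (SE 0.088, adjusted p = 0.789). Among the derlins, membrane proteins of the exit channel, Derl1 had -0.20 without overlap and Derl2 -0.22 with overlap. Derl3 had the largest difference of the 44 genes, -1.43 (SE 0.52, edgeR adjusted p = 0.165), with the widest spread. Its livers held 4 to 76 counts, which was 1.29 and 4.97 CPM in control livers by day and 1.45 and 0.281 at night, and 2.83 and 2.455 in sudachitin livers by day and 0.711 and 1.76 at night. Control day and night thus overlapped, and the highest and the lowest value came from control livers. Sel1l, the scaffold of the ubiquitin ligase Syvn1, had -0.33 (SE 0.15, edgeR adjusted p = 0.242). Syvn1 itself had 74.6 and 169.5 CPM in control livers by day and 61.4 and 69.7 at night, and 72.6 and 83.2 in sudachitin livers by day and 73.1 and 115 at night, and a difference of -0.31 (SE 0.31, edgeR adjusted p = 0.609). Control ZT6 mouse 2 was the highest liver, the control night livers were below all others, and the remaining 3 groups overlapped. Herpud1, the most abundant of the 44, had -0.05 (SE 0.15, edgeR adjusted p = 0.89) and Os9 -0.12, and both overlapped.

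The 250 bases before the transcription start were searched for the ER stress elements that XBP1 and ATF6 are known to bind, on both strands, using RefSeq promoter sequences of GRCm38.p6, in which 36 of the 44 genes were matched. The element ERSE, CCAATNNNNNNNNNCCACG, was found before Creld2, Derl3 and Syvn1, which is 8.33% of the 36 genes and compares with 0.113% of all 32851 windows. ERSE-II, which is ATTGG, 1 base of any kind and CCACG, was found before Herpud1 alone, 2.78% against 0.0304%. The genes were chosen by pathway, and many are known to be induced through XBP1 and ATF6, so the choice itself favours these elements. Each gene had only the window nearest its transcript, and all windows were not matched to these genes in expression or GC content. These shares and those of the short sequences below are thus no test. The 200 bases before the start of these 4 genes are shown since they are the genes with a full element, with the element's fixed letters in capitals. The lines cover chr15:88819446-88819645 for Creld2, chr10:75893198-75893397 for Derl3, chr19:6046376-6046575 for Syvn1 and chr8:94386229-94386428 for Herpud1, all on the plus strand. For Creld2 and Derl3 the element reads on the opposite strand, so it appears reversed and complemented.
Creld2: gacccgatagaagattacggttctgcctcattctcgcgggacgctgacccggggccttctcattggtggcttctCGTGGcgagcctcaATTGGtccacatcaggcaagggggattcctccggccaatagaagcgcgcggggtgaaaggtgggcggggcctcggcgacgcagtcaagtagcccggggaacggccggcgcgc
Derl3: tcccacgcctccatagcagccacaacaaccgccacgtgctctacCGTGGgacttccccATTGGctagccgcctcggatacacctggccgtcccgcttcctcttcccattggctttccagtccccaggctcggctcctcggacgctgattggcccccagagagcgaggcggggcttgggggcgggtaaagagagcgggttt
Syvn1: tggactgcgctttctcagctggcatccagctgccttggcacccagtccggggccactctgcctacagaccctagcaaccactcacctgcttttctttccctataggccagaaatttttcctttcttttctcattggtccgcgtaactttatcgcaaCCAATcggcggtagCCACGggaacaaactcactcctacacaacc
Herpud1: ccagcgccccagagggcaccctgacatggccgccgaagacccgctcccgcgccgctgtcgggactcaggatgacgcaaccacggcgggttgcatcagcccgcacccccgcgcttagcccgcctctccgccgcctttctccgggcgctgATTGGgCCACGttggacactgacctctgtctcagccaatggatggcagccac
The elements begin 126, 156, 44 and 52 bases before the start in this order. The 3 genes with an ERSE had differences from day to night of -1.54, -1.80 and -0.90 in control livers, none of which passed, and Herpud1 with its ERSE-II one of -0.29. Over both treatments the values were -0.91, -1.43, -0.31 and -0.05. Control ZT6 mouse 2 was the highest liver for all 4, and without it the control difference of Creld2 was -0.87. Control ZT6 mouse 1 had 1.3 CPM of Derl3, against 1.45 and 0.281 in the control night livers. It had 74.6 CPM of Syvn1 against 61.4 and 69.7, and 244 CPM of Herpud1 against 266 and 196. For Derl3 and Herpud1 it thus lay between the control night livers. The short parts of the element were common: CCAAT was found before 63.9% of the 36 genes and 33.8% of all windows, and CCACG before 63.9% and 28.3%. The core GACGTG, another sequence XBP1 is known to bind, was found before 22.2% and 5.2%, and the clock element CACGTG, the E-box, before 8.33% and 6.02%. A full element contains CCAAT and CCACG, so these counts are not separate. Such matches are letters in a window and do not show binding. The genes without a match in the promoter table were Srp19, Srp68, Sec61a1, Ssr2, Spcs3, Sec11c, Derl1 and Manf.

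Creld2 and Manf, ER proteins that are strongly induced and partly secreted under ER stress, had large differences and a large spread. Creld2 had 31.7 and 70.3 CPM in control livers by day and 21.2 and 13.7 at night, and 36.3 and 35.4 in sudachitin livers by day and 25.5 and 33.0 at night. Within each treatment the night livers were below the day livers, but sudachitin ZT18 mouse 2 lay above control ZT6 mouse 1. Over both treatments Creld2 had a difference of -0.91 (SE 0.31, edgeR adjusted p = 0.146). Manf, on chromosome 9 from 106887415 to 106891979, had 89.95 and 149 CPM in control livers by day and 54.1 and 33.3 at night, and 80.9 and 97.4 in sudachitin livers by day and 52.0 and 78.5 at night. Its 4 night livers were below its 4 day livers, and the difference was -0.95 (SE 0.27, edgeR adjusted p = 0.0895). The COPII coat subunits Sec23b and Sec24d, the latter a cargo receptor of the coat, had -0.27 and -0.24 and overlapped between day and night over the 8 livers.

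The 4 calls rested on single livers to different degrees. Spcs3 passed whichever library was left out. It was the only gene to pass without control ZT6 mouse 1 or mouse 2, control ZT18 mouse 2, sudachitin ZT6 mouse 2 or sudachitin ZT18 mouse 1. Without sudachitin ZT6 mouse 1, Spcs3 and Stt3a passed, and without control ZT18 mouse 1, the library that stood apart, 5 genes passed, where 6.99% of all tested transcripts did. Where Spcs3 alone or Spcs3 and Stt3a passed, 1.09% to 1.7% did. With any 1 library left out, 35 to 42 genes were below 0, the lowest number being without control ZT6 mouse 2.

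Within control livers alone, no gene passed edgeR's test between ZT18 and ZT6, where 0.524% of all tested transcripts did, 0.31% lower and 0.214% higher. At an unadjusted p under 0.05 there were 23 genes, against 12.9% of all tested transcripts. DESeq2 called 7 (Creld2, Ddost, Manf, Sec61a1, Spcs3, Srpr and Stt3a), all lower at ZT18, against 2.15% of the transcripts it tested, and limma on log2 FPKM none. The difference was below 0 in 41 genes, against 47.2% of all transcripts, with a median of -0.34 against 0.02 for all transcripts. In 28 genes both night livers were below both day livers, which 21.1% of all transcripts showed. Ost4 was the 1 gene with both night livers higher, against 21.3%. The smallest p-values were those of Sec61a1 with -0.84 (SE 0.14, edgeR adjusted p = 0.0529), Spcs3 with -0.64 (SE 0.12, adjusted p = 0.0645), Stt3a with -0.63 (SE 0.13, adjusted p = 0.0991), Manf with -1.45 (SE 0.31, adjusted p = 0.117) and Creld2 with -1.54 (SE 0.35, adjusted p = 0.127). Control ZT6 mouse 2 was the highest of the 8 livers in 31 of the 44 genes, against 8.73% of all transcripts, and above mouse 1 of its group in 38. Without it the median was -0.23, 36 genes were below 0, and Creld2 and Manf had differences of -0.87 and -1.05. Without control ZT18 mouse 2, the lowest liver in 20 genes, the median was -0.27, and Sec61a1 then passed (edgeR adjusted p = 0.044), as it did without either sudachitin ZT18 liver (0.0445 and 0.0418). Control ZT18 mouse 2 also had the highest share of mitochondrial counts, 8.45% against 5.75% to 7.1% in the other livers, whose part in these differences was not tested.

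Within sudachitin livers no gene passed edgeR's test either (0.186% of all transcripts did), with 3 genes at an unadjusted p under 0.05 against 12.6% of all transcripts, and none with DESeq2 or limma. The difference was below 0 in 37 genes, against 49.1% of all transcripts, with a median of -0.175 against 0.01. In 25 genes both night livers were below both day livers, against 22.3% of all transcripts. Both were higher in Srprb, Edem3 and Herpud1, against 23.5%. Spcs3 again had the smallest p, with -0.48 (SE 0.12, edgeR adjusted p = 0.148). It was followed by Stt3a with -0.34 (SE 0.13, adjusted p = 0.338), Vcp with -0.33 (SE 0.13, adjusted p = 0.344), Srpr with -0.31 (SE 0.14, adjusted p = 0.404) and Ssr1 with -0.29 (SE 0.13, adjusted p = 0.412). The night livers were below the day livers within each treatment in 19 genes, which 9.55% of all transcripts showed, and above in none, against 8.82%. By role these were 2 of the 8 genes of SRP and receptor, 6 of 9 of the channel and TRAP, 3 of 7 of the transferase, 2 of 5 of the peptidase, 4 of 11 of ERAD, both secreted proteins and neither COPII subunit.

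**Figure D4:**
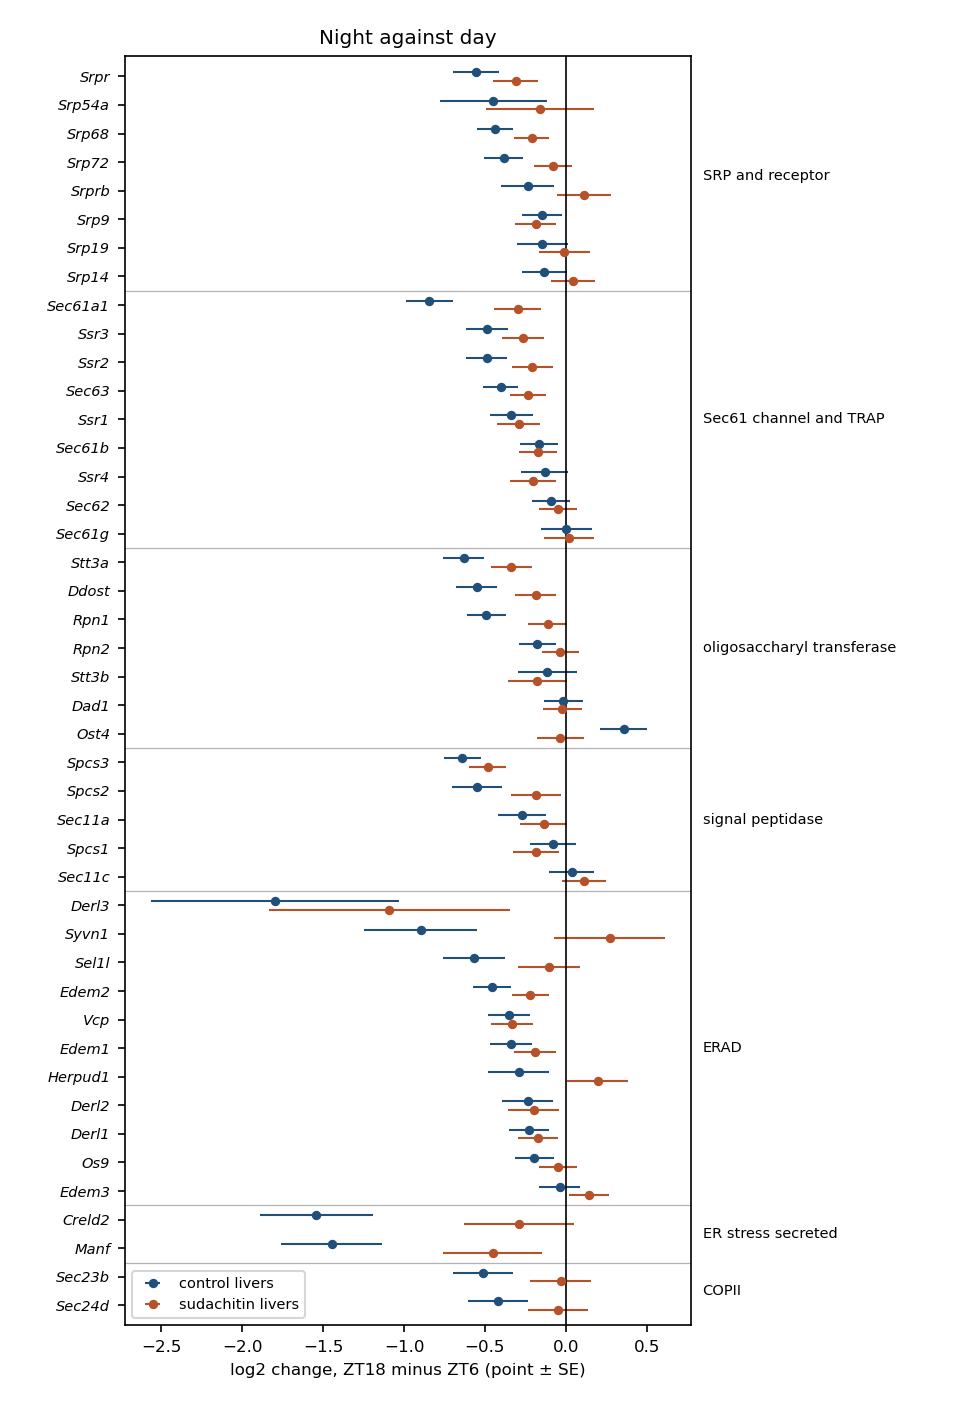
log2 difference between ZT18 and ZT6 for each gene in control and in sudachitin livers, as points with the SE as bars, by role. Most points lie left of 0 in both treatments, and the control points lie further left for 37 genes.

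The differences between day and night were smaller in sudachitin livers for most genes, but no gene passed the test of that difference. The interaction is the night minus day difference of sudachitin livers minus that of control livers. It was above 0 in 37 genes, against 49.5% of all transcripts, with a median of 0.18 against -0.0039 for all transcripts. In edgeR none of the 44 and 0% of all transcripts passed, and 4 genes had an unadjusted p under 0.05 (3.78% of all transcripts), while DESeq2 and limma called none. Those 4 were Sec61a1 with 0.55 (SE 0.20), Creld2 with 1.25 (SE 0.48), Syvn1 with 1.17 (SE 0.49) and Manf with 0.99 (SE 0.43), each with an edgeR adjusted p of 0.998. Rpn1 came next with 0.38 (SE 0.17, edgeR adjusted p = 0.998). For 3 of them the value leaned on control ZT6 mouse 2, without which it was 0.56 for Creld2, 0.46 for Syvn1 and 0.59 for Manf, and on sudachitin ZT18 mouse 2 for Sec61a1, which then had 0.36. The median was 0.11 without control ZT6 mouse 2.

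Sudachitin livers were compared with control livers at each time. These comparisons use the same control and sudachitin livers as those of day and night, so their values stand side by side and are no separate evidence. At ZT6 no gene passed edgeR's test, as did 0% of all transcripts. None of the 44 had an unadjusted p under 0.05, against 2.12% of all transcripts, and DESeq2 and limma called none. The difference was below 0 in 33 genes, against 51.2% of all transcripts, with a median of -0.11. The libraries did not overlap in 13 genes with lower and 2 genes with higher values (16.3% and 15.4% of all transcripts). Without control ZT6 mouse 2 the median was 0.0044. The genes with the smallest p were Ssr4, higher at 66.9 and 63.5 CPM in sudachitin against 46.6 and 59.2 in control livers with 0.30 (SE 0.14), and Sec23b, lower at 38.5 and 38.0 against 44.5 and 55.6 CPM with -0.39 (SE 0.19). Syvn1 had -0.65 (SE 0.35), Edem3 -0.24 (SE 0.13) and Srp68 -0.19 (SE 0.11), and the edgeR adjusted p of all 5 was 1. Without control ZT6 mouse 2 the values were 0.06 for Syvn1, 0.49 for Ssr4 and -0.22 for Sec23b, and without mouse 1 of that group Syvn1 had -1.12 and Ssr4 0.14. Edem3 had -0.12 without sudachitin ZT6 mouse 1.

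At ZT18 the values leaned the other way, again without a call. In edgeR no gene passed, where 0.0138% of all transcripts did, 2 had an unadjusted p under 0.05 (6.51% of all transcripts), and DESeq2 and limma called none. The difference was above 0 in 34 genes, against 49.6% of all transcripts, with a median of 0.12. That median was 0.07 without sudachitin ZT18 mouse 2, 0.08 without control ZT18 mouse 2, and 0.06 with limma on log2(FPKM + 0.1) or log2(FPKM + 1). In these 2 limma fits the median of all transcripts was also lower, at -0.057 and -0.032, against -0.0021 in edgeR. Both sudachitin livers were above both control livers in 20 genes, against 15.3% of all transcripts, and below in none, against 15.5%. Edem2 had the smallest p, at 39.1 and 41.0 CPM in sudachitin and 32.1 and 33.6 in control livers, a difference of 0.29 (SE 0.12, edgeR adjusted p = 0.742). Sec61a1 followed with 0.35 (SE 0.14, edgeR adjusted p = 0.745), Creld2 with 0.74 (SE 0.35, adjusted p = 0.783), Ddost with 0.24 (SE 0.13, adjusted p = 0.804) and Manf with 0.57 (SE 0.31, adjusted p = 0.806). The libraries of these genes did not overlap except for Manf. Without sudachitin ZT18 mouse 2 the differences were 0.16 for Sec61a1, 0.54 for Creld2 and 0.25 for Manf, without control ZT18 mouse 2 they were 0.40, 0.46 and 0.27, and without control ZT18 mouse 1 they were 0.31, 1.10 and 0.97.

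Over both times together the treatment difference had a median of 0.01, with no gene past edgeR's test (0.0207% of all transcripts passed), 1 at an unadjusted p under 0.05 (4.41% of all transcripts) and none with DESeq2 or limma. In no gene did the 4 sudachitin livers all lie above or all below the 4 control livers, which 0.958% and 0.869% of all transcripts did. Ssr4 was nearest, with 0.26 (SE 0.096, edgeR adjusted p = 0.996). Sec61g had 0.20 (SE 0.10), Edem2 0.17 (SE 0.085), Sec11c 0.15 (SE 0.091) and Edem3 -0.14 (SE 0.088), each with an edgeR adjusted p of 0.996. Edem3, for example, had 34.9 and 40.7 CPM in sudachitin ZT6 and 43.4 and 45.6 in control ZT6 livers, but 42.1 and 41.4 against 46.1 and 40.5 at ZT18, where the groups overlapped. Sec61g had 27.5 and 35.7 CPM in sudachitin ZT6, 26.3 and 28.8 in control ZT6, 32.2 and 31.7 in sudachitin ZT18 and 25.2 and 30.2 in control ZT18 livers. Sec11c had 20.4 and 18.6, 16.7 and 19.3, 22.5 and 19.7, and 17.7 and 19.3 CPM in that order. For both the treated livers were higher without overlap at ZT18 only.

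**Figure D5:**
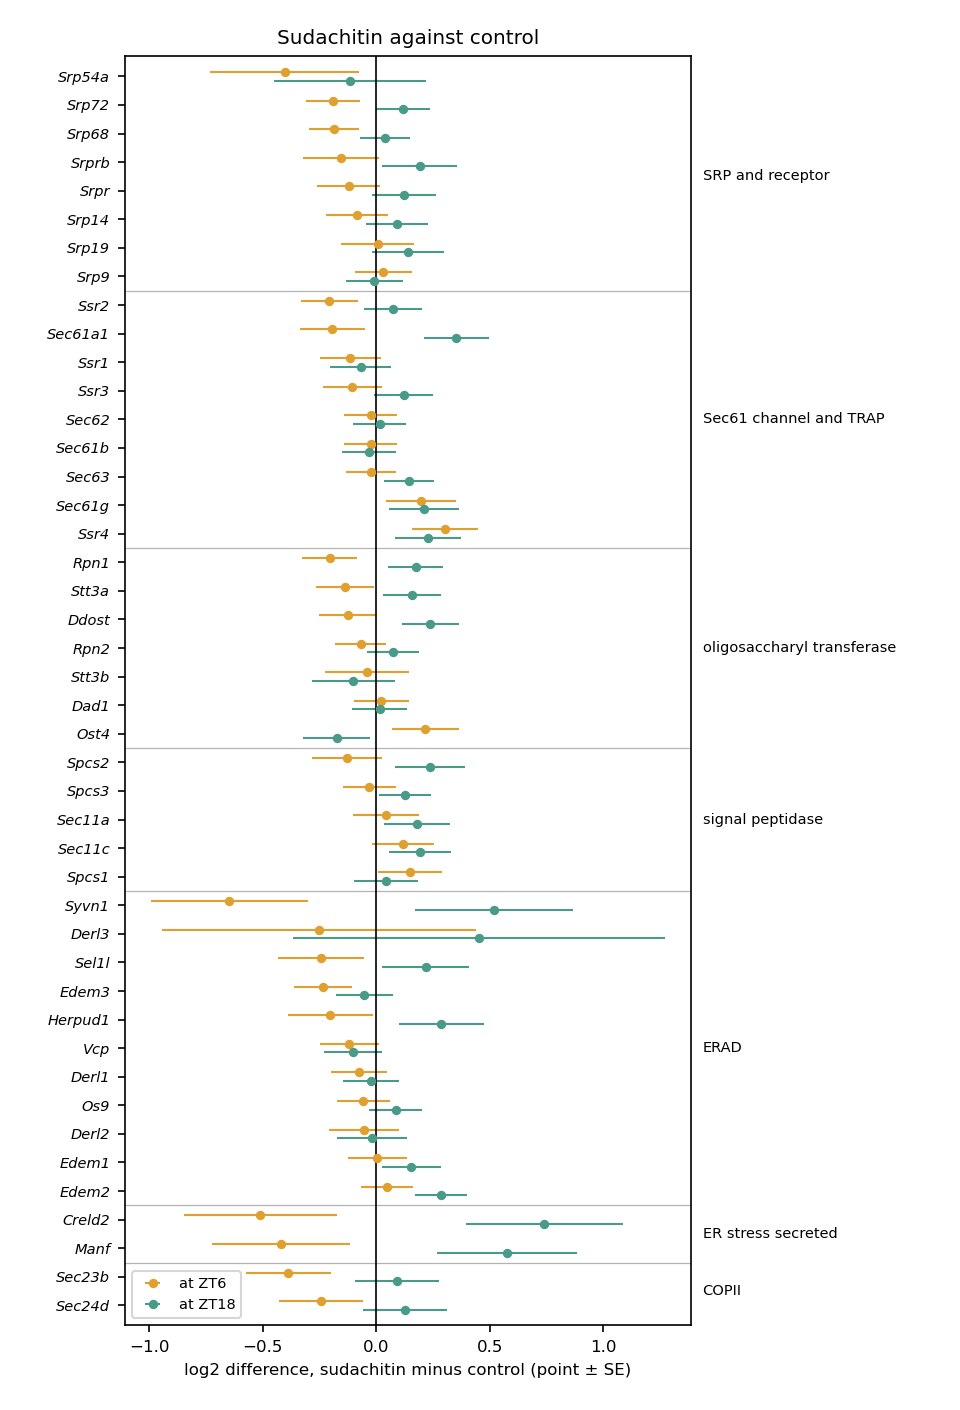
log2 difference between sudachitin and control livers for each gene at ZT6 and at ZT18, as points with the SE as bars, by role. At ZT6 33 points lie left of 0 and at ZT18 34 lie right of it, and Syvn1, Creld2 and Manf have the widest gaps between the times.

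Markers of other cell types were summed in each liver, and their part in the differences above was not tested. Of 6 markers of exocrine pancreas, Cpa1, Prss1, Pnlip, Ctrb1 and Amy2a5 were listed at 0 in all 8 livers. Cela1 was at 5.97 and 12.8 FPKM in control livers by day and 2.13 and 4.90 at night, and 9.05 and 9.23 in sudachitin livers by day and 4.48 and 5.05 at night, so that it was lower in all night livers and highest in control ZT6 mouse 2. The 9 markers of plasma and B cells, of which Tnfrsf17 was at 0 in all livers, summed to 14.8 and 10.2 FPKM in control livers by day and 12.0 and 28.5 at night, and 6.21 and 16.8 in sudachitin livers by day and 35.6 and 14.2 at night. Sudachitin ZT18 mouse 1 and control ZT18 mouse 2, with the highest sums, were the livers with the lowest Derl3, and control ZT6 mouse 2, with the highest Derl3, Creld2 and Manf, had 10.2 FPKM. Ighm and Igkc made up most of each sum, so that it does not stand for all 9 markers. In control ZT18 mouse 2, Ighm was at its highest, 20.7 FPKM, but Pou2af1 at its lowest, 0.018. In control ZT6 mouse 2, Jchain was at 0.411 and Mzb1 at 0.12 FPKM, above mouse 1 of that group with 0.207 and 0.094. The 4 cholangiocyte markers summed to 1.01 to 1.19 FPKM by day and 1.24 to 1.75 at night, without overlap. Sox9, at 0.467 to 1.03 FPKM, was the largest part of each sum, and Krt7 was at 0.008 to 0.095. Over both treatments all 4 were above 0, against 52.7% of all transcripts, but only 1 had no overlap by itself, where 5.99% of all transcripts were higher without overlap. In sudachitin livers Krt7 had a difference of -0.28. The 7 Kupffer cell markers summed to 19.1 and 23.1 FPKM in control livers by day and 30.6 and 16.2 at night, and 26.4 and 43.1 in sudachitin livers by day and 23.9 and 23.4 at night. At ZT6 all 7 were higher in sudachitin than in control livers (median log2 difference 0.75), against 48.8% of all transcripts. For 6 of them the livers did not overlap, against 15.4% of all transcripts, so that these markers moved with the treatment comparison by day. The 6 stellate cell markers summed to 36.8 and 41.2 FPKM in control livers by day and 50.2 and 44.2 at night, and 33.7 and 39.8 in sudachitin livers by day and 44.7 and 35.6 at night. The sum was higher at night in control livers without overlap, and Dcn, at 27.4 to 36.9 FPKM, made up most of it. Of the 6 markers, 4 were above 0 and 2 below 0 in that comparison, where 52.8% of all transcripts were above 0, the lowest being Lrat with -0.52. At ZT18 all 6 were lower in sudachitin than in control livers (median -0.58), against 50.4% of all transcripts. For 4 of them the livers did not overlap, against 15.5% of all transcripts. The 5 endothelial markers summed to 12.4 to 17.3 FPKM, with day and night overlapping. No Kupffer or stellate marker passed edgeR's test in these comparisons. An unadjusted p under 0.05 was found for 4 Kupffer markers at ZT6, against 2.12% of all transcripts, and for 3 stellate markers at ZT18, against 6.51%.

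Lists of other genes of these pathways were compared between day and night in the same way. Over both treatments, 10 of 20 ER chaperones and folding enzymes fell and none rose, with a median of -0.54. Among them Pdia6, a disulfide isomerase, fell by 0.87 (SE 0.14, edgeR adjusted p = 0.0136), and 6 of the 20 fell in control and none in sudachitin livers, where 1.82%, 0.31% and 0.0758% of all tested transcripts fell over both treatments, in control and in sudachitin livers. The interaction was positive for 18 of the 20 (median 0.43), against 49.5% of all transcripts, but edgeR called none of them and 0% of all transcripts. An unadjusted p under 0.05 was found for 9 of the 20, against 3.78% of all transcripts. Hsp90b1 and Calr, chaperones of the ER lumen, fell by 0.82 (SE 0.13, edgeR adjusted p = 0.0108) and 0.75 (SE 0.13, adjusted p = 0.0189). Of 9 genes of glycan trimming and quality control Uggt1, the sensor that marks misfolded glycoproteins, fell by 0.49 (SE 0.11, edgeR adjusted p = 0.0442), and of 18 further ERAD genes Selenos, which brings Vcp to the membrane, fell by 0.53 (SE 0.12, adjusted p = 0.0433). No gene passed among 20 of dolichol-linked glycan assembly (median -0.08), 16 further translocon and transferase genes (-0.03), 13 further COPII genes (0.01) and 12 sensors and factors of the unfolded protein response (-0.03). Of these 12, Xbp1 fell in control livers by 0.85 (SE 0.13, edgeR adjusted p = 0.0395) and had a difference of 0.10 (SE 0.13, adjusted p = 0.802) in sudachitin livers. The interaction of Xbp1 was 0.95, the highest of the 12, and did not pass edgeR's test, as did none of the 12. Of these 1 had an unadjusted p under 0.05, against 3.78% of all transcripts. Magt1, a subunit of the oligosaccharyl transferase form with Stt3b, had -0.50 (SE 0.12, edgeR adjusted p = 0.0604).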

How the data were processed

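Liver poly(A) RNA of 8 mice, 2 in each of 4 groups, was measured. Per the submitters' processing notes, Trimmomatic 0.39, STAR 2.7.2a and HOMER were used with GRCm38 (mm10). The authors deposited 1 table of estimated counts per transcript, per the file headers, some of them not whole, and 1 table of FPKM, which equals the count divided by exon length and library total. The sources used here do not state whether counting used strand. Estimated counts were rounded to whole numbers, and 14506 of 55421 transcripts passed edgeR's filterByExpr. After TMM scaling, edgeR 4.0.16 in R 4.3.3 was fitted to the 4 group means, or to treatment and time as additive terms for the comparisons over both, with the quasi-likelihood F test and Benjamini-Hochberg adjustment over all tested transcripts at 0.05. SE is the absolute log2 difference divided by the square root of F. DESeq2 1.42.0, limma 3.58.1 on log2(FPKM + 0.1), other scalings and filters, a replicate term and leaving out each library were alternatives. The fitting code was tested on simulated data.

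The titles name each sample as a mouse, so p-values measure the spread between mice. The members and all lists were chosen with earlier results of these data known. Genes named with full values are those that passed in any comparison and, where fewer than 5 passed, the 5 with the smallest p, and members of other lists were named from the 3 with the smallest p. Beyond these, genes were named to account for each role and were chosen with their values seen. Replicate numbers were not stated to pair the samples, so the main fit held no term for them.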

Additional observations from a re-analysis of the deposited data

How the results depend on the processing

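Between ZT18 and ZT6 over both treatments 4 genes passed (3.68% of all transcripts), against 13 with DESeq2 (7.25%), 10 without a filter on low counts (5.72% of 28464), 8 with limma on log2(FPKM + 0.1) (2.81%) and 1 to 5 with 1 library left out (1.09% to 6.99%). In control livers the count of 0 became 7 with DESeq2, 11 without the filter (3.1%) and 0 to 1 with 1 library left out. Without the filter, 2 genes (Creld2 and Manf; 1.71% of all transcripts) passed between treatments at ZT18 and 3 (Creld2, Manf and Syvn1; 0.91%) in the interaction, against 0. Between ZT18 and ZT6 in sudachitin livers, between treatments at ZT6 and over both times, the count was 0 in every alternative run. The cause was not tested. With the replicate number as a block 3 genes passed over both treatments (Sec61a1, Spcs3 and Stt3a), and Srpr had an adjusted p of 0.0687. Correlations of same-numbered deviations were -0.204 to 0.281. Spcs3 passed in 16 of 16 alternatives, Stt3a in 11, Sec61a1 in 10 and Srpr in 5. The leave-one-out settings were planned, but their counts of genes below 0 were added after seeing the data. By these counts 35 to 42 genes were below 0 over both treatments, 36 to 43 in control and 33 to 37 in sudachitin livers. Derl3 rested on 4 to 76 counts a library and Srp54a on 21 to 45, which limits the precision of both.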
